A study of Mus musculus with 18 samples.

Results

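The genes described here are 10 transcripts by which astrocytes clear water, potassium and glutamate from the space around neurons and stay coupled to each other: Aqp4, Kcnj10, Kcnj16, Slc1a2, Slc1a3, Glul, Gja1, Gjb6, Mlc1 and Hepacam. They were chosen by name for these roles, with earlier results of these data known. All 10 were found among the 18389 genes listed for mouse hippocampus and the 18235 listed for cerebral cortex. Poly(A) RNA of both tissues was sequenced in 3 states with 3 libraries each, 18 in all, to compare ways of preserving brain tissue at low temperature. Vitrified tissue was loaded in steps of 5 min with a solution of 28 wt% ethylene glycol and 22.3 wt% dimethyl sulfoxide (DMSO) with sucrose, plunged into liquid nitrogen, stored cold for 4 days, rewarmed and unloaded in steps. Snap-frozen tissue went into liquid nitrogen without cryoprotectant, and fresh tissue was the unfrozen control. Liquid nitrogen was thus common to both frozen states, while the labels describe loading, cold storage, rewarming and unloading for the vitrified libraries alone, and the parts of these steps cannot be told apart. The labels give neither strain nor age and do not say which animals the libraries came from, so the tests speak only to the spread among libraries, part of which may be technical.

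Astrocytes wrap synapses and vessels with fine processes, and their endfeet on vessels hold the water channel AQP4. They take up the potassium that active neurons release through inwardly rectifying channels, and glutamate through EAAT transporters, and turn the glutamate into glutamine that returns to neurons. Gap junctions join them into a network through which ions and metabolites spread, and MLC1 and the adhesion protein HepaCAM form a membrane complex whose loss in humans causes a leukodystrophy with swollen white matter.

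Values are CPM (counts scaled to one library size, with a correction for library composition), and changes are log2 fold changes with their standard error (SE). A gene is said to have risen or fallen where edgeR's quasi-likelihood test gave a Benjamini-Hochberg adjusted p below 0.05 over all genes tested. Total counts lay between 15725356 and 17480302 per library, and the 10 genes together took 0.246% to 0.251% of them in vitrified, 0.642% to 0.671% in snap-frozen and 0.626% to 0.644% in fresh hippocampus. In cortex the shares were 0.411% to 0.421% in vitrified, 0.595% to 0.621% in snap-frozen and 0.706% to 0.708% in fresh tissue. Libraries of 1 group were close, with a coefficient of variation beyond counting noise of 1.69% in hippocampus and 2.71% in cortex, so small differences passed the test. In snap-frozen cortex, replicate 3 differed most from its fellows: its counts gave a chi-square per degree of freedom of 3.57 and 3.90 against replicates 2 and 1, where all other pairs within a group gave 1.22 to 1.61. Without it, as many of the 10 genes passed in each of the 3 comparisons within cortex, although in snap-frozen against fresh cortex Aqp4 then passed and Hepacam did not.

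The snap-frozen hippocampal libraries differed from fresh ones in markers of several cell types other than astrocytes. Slc17a6, the vesicular glutamate transporter best known from thalamus and brainstem, stood at 12.9 ± 2.08 CPM in vitrified, 274 ± 7.09 CPM in snap-frozen and 12.1 ± 0.329 CPM in fresh hippocampus (SD, n = 3 each). Neurod6, a transcription factor of hippocampal and cortical excitatory neurons, stood at 261 ± 4.20 CPM in vitrified, 129 ± 2.41 CPM in snap-frozen and 254 ± 7.35 CPM in fresh hippocampus. The 7 excitatory neuron markers summed to 4148 to 4216 CPM in snap-frozen and 7644 to 7800 CPM in fresh hippocampus, and 6 of them fell. All 8 oligodendrocyte markers rose (median log2 fold change 0.60) and summed to 9404 to 9484 CPM in snap-frozen and 6008 to 6170 CPM in fresh hippocampus. All 7 endothelial and all 6 pericyte and smooth muscle markers rose too, the first group to 289.7 to 300.5 CPM in snap-frozen against 119 to 122 CPM in fresh hippocampus. Of the others, 4 of 6 inhibitory neuron markers rose and 2 fell, 5 of 6 ependymal markers rose, and 5 of 7 microglial markers fell. Of 6 meningeal markers 4 rose and 1 fell (median 0.95). They summed to 101.5 to 103.9 CPM in snap-frozen and 73.6 to 73.7 CPM in fresh hippocampus. Of 5 choroid plexus markers tested 1 rose and 1 fell, and of 6 oligodendrocyte precursor markers 2 rose and 1 fell. None of these markers was at 0 in a whole group. Every snap-frozen hippocampal value below was measured beside these differences, and their part in it was not tested. The labels do not say whether the snap-frozen hippocampal samples held the same region as the fresh and vitrified ones. In these libraries an effect of snap freezing and a difference in the region taken cannot be told apart.

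Per kilobase of exon, Glul, the glutamine synthetase of astrocytes, was the most abundant of the 10 in fresh tissue, at 652 ± 34.6 CPM per kb in hippocampus and 707 ± 3.15 CPM per kb in cortex (SD, n = 3). The glutamate transporters followed, Slc1a2 at 254 ± 2.18 and 277 ± 2.12 CPM per kb in the same tissues, and Slc1a3 at 144 ± 1.72 and 147 ± 1.63 CPM per kb. The Slc1a2 level depends on the 12192 bp of annotated exon it is divided by, the longest of the 10. Below them came Mlc1 (76.7 ± 0.743 CPM per kb in hippocampus and 76.1 ± 1.73 in cortex), Gja1 (53.1 ± 0.992 and 51.6 ± 0.431) and Kcnj10 (45.7 ± 0.682 and 50.8 ± 1.07). The lowest levels per kb were those of Hepacam (27.8 ± 0.452 and 28.6 ± 1.00), Aqp4 (24.9 ± 0.285 and 25.6 ± 0.565), Gjb6 (23.5 ± 1.02 and 31.0 ± 0.633) and Kcnj16 (6.97 ± 0.238 and 8.56 ± 0.375). Libraries of neighbours in this order overlapped only for Aqp4 and Gjb6 in hippocampus and for Gja1 and Kcnj10 in cortex.

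In vitrified hippocampus all 10 genes fell against fresh hippocampus, with a median log2 fold change of -1.51 and a range of -1.71 to -0.87. Of all 14528 genes tested, 25.3% fell and 23.8% rose, and their median change was 0.01. For 9 of the 10 the change was below -1, which 2.64% of all genes tested reached. All 10 were lower in every vitrified library than in any fresh one, as were 27.4% of all genes. In whole tissue, fewer astrocytes and less RNA per astrocyte cannot be told apart. With library totals in place of the composition correction, 2835 genes fell and 4806 rose where the correction gave 3672 and 3463, and all 10 still fell.

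In snap-frozen hippocampus the direction varied: 7 of the 10 rose and 3 fell against fresh hippocampus, where 31.5% of all genes rose and 30.7% fell. The median of the 10 was 0.42, and 0.01 over all genes. None of the 10 overlapped between both groups, which was also true of 65.2% of all genes. With library totals 6784 genes rose and 2867 fell, against 4578 and 4458 with composition factors, and the median of all genes moved from 0.01 to 0.13. Against snap-frozen hippocampus, vitrified hippocampus was lower in all 10 genes (34.0% of all genes fell), with a median log2 fold change of -1.54. The comparisons share libraries, so their values are not independent.

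In cortex all 10 fell in vitrified against fresh tissue, with a median log2 fold change of -0.85 and a range of -1.27 to -0.49, where 17.3% of all genes fell, 23.2% rose and the median of all genes was 0.03. All 10 were lower in every vitrified cortical library than in any fresh one, as were 22.5% of all genes. In snap-frozen against fresh cortex 8 of the 10 fell and 0 rose, by small amounts (median of the 10 -0.16, lowest -0.36), where 17.6% of all genes fell and 16.4% rose. In this comparison 7 of the 10 were lower without overlap, as were 22.6% of all genes. Vitrified against snap-frozen cortex was again lower in all 10, at a median of -0.68, where 24.2% of all genes fell.

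**Figure D1:**
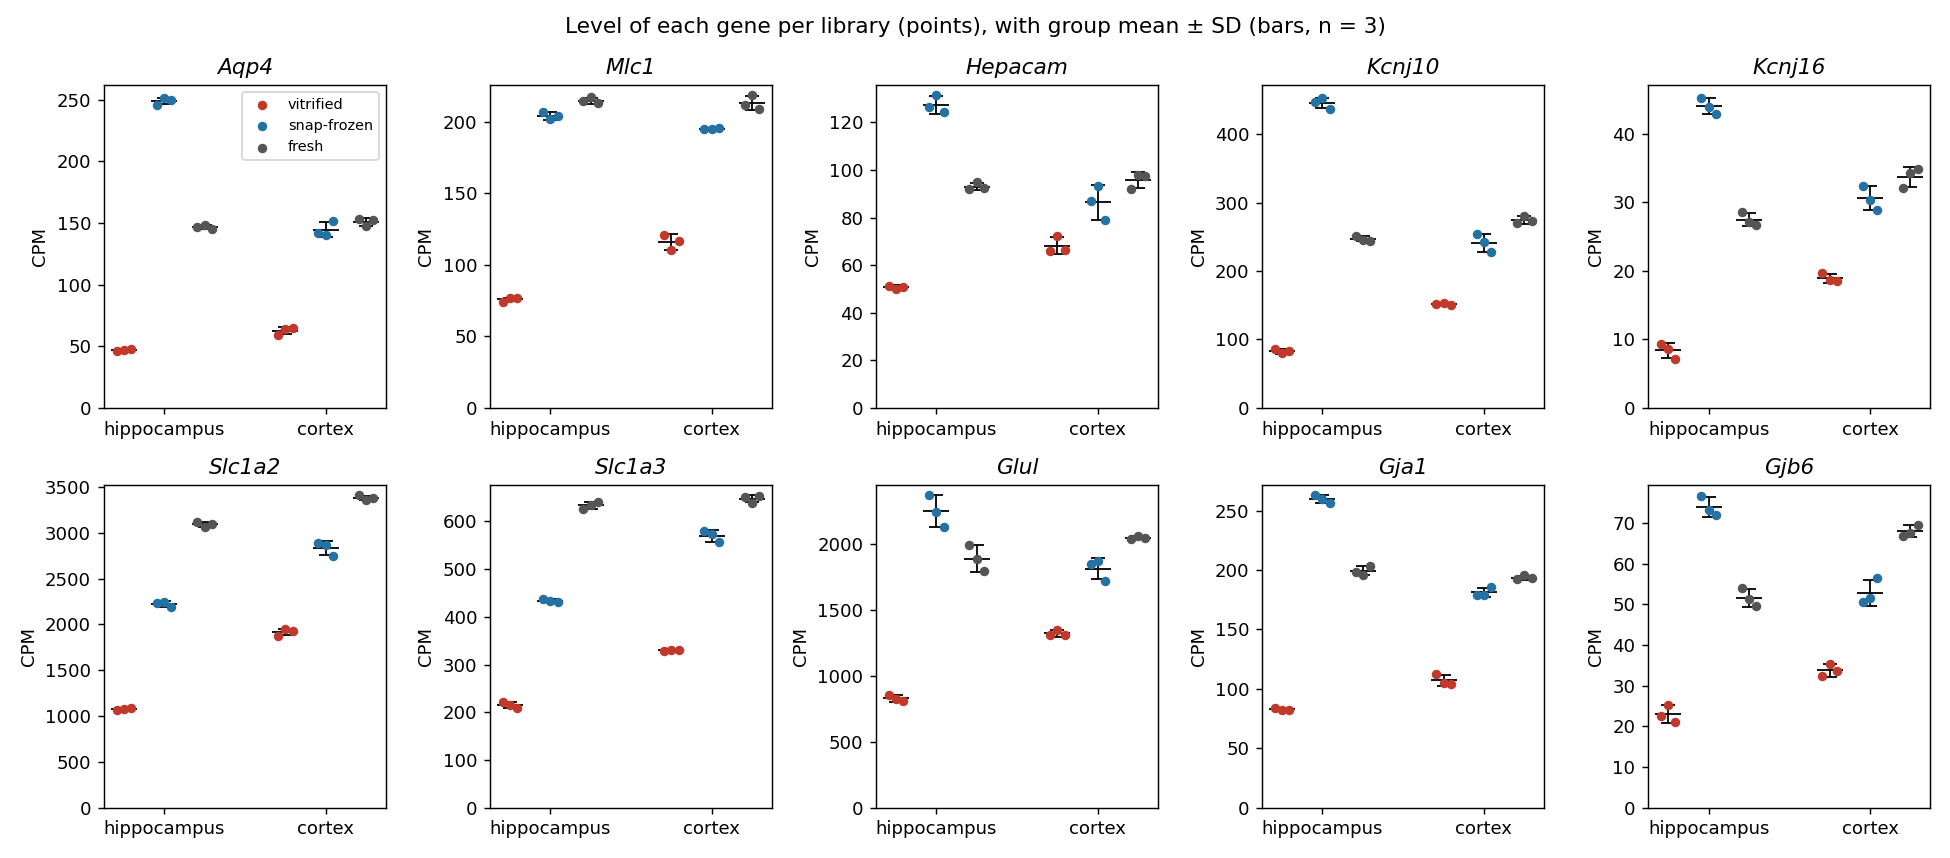
CPM (vertical axis, from 0) of each of the 10 genes in the 18 libraries, grouped by tissue, with vitrified, snap-frozen and fresh libraries from left to right in each tissue; bars give the mean ± SD of 3 libraries. The vitrified libraries are the lowest group of each tissue in every panel, while snap-frozen hippocampus lies above fresh hippocampus for 7 genes and below it for Slc1a2, Slc1a3 and Mlc1.

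Aqp4 (ENSMUSG00000024411.10, GRCm38 chromosome 18, 15389496 to 15410982, minus strand), the water channel that endfeet hold along vessels, was among the genes with the largest changes. In hippocampus, Aqp4 stood at 45.9, 46.8 and 48.1 CPM in vitrified, 246, 251 and 249.8 CPM in snap-frozen and 147, 148 and 145 CPM in fresh tissue. The states did not overlap, with snap-frozen libraries the highest and vitrified ones the lowest. Aqp4 fell in vitrified hippocampus (log2 fold change -1.65 ± 0.03, adjusted p = 4.3e-37) and rose in snap-frozen hippocampus (0.76 ± 0.03, adjusted p = 2.9e-29). Vitrified against snap-frozen hippocampus it was lower still (-2.41 ± 0.03). In cortex, Aqp4 stood at 59.5, 64.1 and 64.6 CPM in vitrified, 142, 141 and 151 CPM in snap-frozen and 154, 147 and 152 CPM in fresh tissue. Snap-frozen and fresh cortex overlapped through snap-frozen replicate 3. Aqp4 fell in vitrified cortex (-1.27 ± 0.04), the largest fall of the 10 there. In snap-frozen cortex its log2 fold change of -0.06 ± 0.04 did not pass (adjusted p = 0.2, 95% interval -0.14 to 0.01). Without snap-frozen replicate 3 it did (adjusted p = 0.0199).

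Mlc1 (ENSMUSG00000035805.13, GRCm38 chromosome 15, 88955884 to 88979007, minus strand) encodes a membrane protein of astrocytes that takes part in their regulation of volume. In hippocampus, Mlc1 stood at 74.2, 76.5 and 76.5 CPM in vitrified, 207, 202 and 204 CPM in snap-frozen and 215, 217 and 213 CPM in fresh tissue. Vitrified libraries lay far below the others, and snap-frozen ones just under the fresh ones. Mlc1 fell in vitrified hippocampus (log2 fold change -1.50 ± 0.03) and, by little, in snap-frozen hippocampus (-0.07 ± 0.02, adjusted p = 0.0101). The sign of that small change turned with library totals (0.05, adjusted p = 0.0945). In cortex, Mlc1 stood at 121, 110.1 and 117 CPM in vitrified, 195, 195 and 195 CPM in snap-frozen and 212, 218 and 209 CPM in fresh tissue. The 3 states of cortex did not overlap. Mlc1 fell in vitrified (-0.88 ± 0.04) and in snap-frozen cortex (-0.13 ± 0.03, adjusted p = 0.00417).

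Hepacam (ENSMUSG00000046240.8, GRCm38 chromosome 9, 37367351 to 37386575, plus strand), whose product brings MLC1 to astrocyte junctions, had the smallest fall of the 10 in both vitrified tissues. In hippocampus, Hepacam stood at 51.4, 49.9 and 50.8 CPM in vitrified, 126, 132 and 124 CPM in snap-frozen and 92.0, 94.8 and 92.3 CPM in fresh tissue. The states did not overlap. Hepacam fell in vitrified hippocampus (log2 fold change -0.87 ± 0.04) and rose in snap-frozen hippocampus (0.45 ± 0.03), where Mlc1 did not rise. In cortex, Hepacam stood at 66.0, 72.4 and 66.3 CPM in vitrified, 86.9, 93.2 and 78.9 CPM in snap-frozen and 91.8, 98.0 and 97.3 CPM in fresh tissue. Vitrified cortex lay below both other states, which overlapped. Hepacam fell in vitrified cortex (-0.49 ± 0.05) and in snap-frozen cortex (-0.15 ± 0.05, adjusted p = 0.0178). The second of these no longer passed when fresh replicate 2 was left out (adjusted p = 0.0845), fresh replicate 3 (0.0703) or snap-frozen replicate 3 (0.1).

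Kcnj10 (ENSMUSG00000044708.5, GRCm38 chromosome 1, 172341210 to 172374085, plus strand) encodes Kir4.1, the main potassium channel of astrocytes, which oligodendrocytes express too. In hippocampus, Kcnj10 stood at 86.4, 79.6 and 82.5 CPM in vitrified, 447, 452 and 437 CPM in snap-frozen and 251, 246 and 244 CPM in fresh tissue. Snap-frozen libraries were the highest and vitrified ones the lowest, with no overlap. Kcnj10 fell in vitrified hippocampus (log2 fold change -1.58 ± 0.03, adjusted p = 4.5e-39) and rose in snap-frozen hippocampus (0.85 ± 0.02, adjusted p = 4.4e-33), the largest rise of the 10. The oligodendrocyte markers that rose in the same snap-frozen libraries stand beside this value, and their part in it was not tested. Vitrified against snap-frozen hippocampus, Kcnj10 fell by the largest amount of the 10 (-2.43 ± 0.03), close to Aqp4 (-2.41 ± 0.03) and Kcnj16 (-2.39 ± 0.07). In cortex, Kcnj10 stood at 152, 154 and 151 CPM in vitrified, 254, 242 and 228 CPM in snap-frozen and 269.5, 281 and 273 CPM in fresh tissue. In cortex the fresh libraries were the highest. Kcnj10 fell in vitrified (-0.85 ± 0.04) and in snap-frozen cortex (-0.19 ± 0.03, adjusted p = 1.0e-04).

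Kcnj16 (ENSMUSG00000051497.15, GRCm38 chromosome 11, 110968033 to 111027968, plus strand) encodes Kir5.1, which forms channels together with Kir4.1. In hippocampus, Kcnj16 stood at 9.34, 8.63 and 7.20 CPM in vitrified, 45.2, 43.9 and 42.9 CPM in snap-frozen and 28.5, 27.1 and 26.7 CPM in fresh tissue. Per kb it was the lowest of the 10 in all 6 groups, and it had the largest fall of the 10 in vitrified hippocampus. That fall was close to the one of Aqp4 (-1.65 ± 0.03) and ranged from -1.79 to -1.61 with 1 library left out. Kcnj16 fell in vitrified hippocampus (log2 fold change -1.71 ± 0.08) and rose in snap-frozen hippocampus (0.68 ± 0.05). In cortex, Kcnj16 stood at 19.6, 18.6 and 18.5 CPM in vitrified, 32.4, 30.3 and 28.9 CPM in snap-frozen and 32.0, 34.3 and 34.8 CPM in fresh tissue. Vitrified cortex did not overlap with the other states, while snap-frozen replicate 1 lay within the fresh range. Kcnj16 fell in vitrified cortex (-0.84 ± 0.06). Its log2 fold change of -0.14 ± 0.06 in snap-frozen cortex did not pass (adjusted p = 0.0581, 95% interval -0.26 to -0.03). It did without fresh replicate 1 (0.0431), without snap-frozen replicate 1 (0.024) or with median-of-ratios factors (0.0367).

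Slc1a2 (ENSMUSG00000005089.15, GRCm38 chromosome 2, 102658659 to 102790784, plus strand) encodes GLT-1, which carries most glutamate uptake of the forebrain. In hippocampus, Slc1a2 stood at 1064, 1073 and 1085 CPM in vitrified, 2236, 2247 and 2189 CPM in snap-frozen and 3113, 3061 and 3096 CPM in fresh tissue. The states did not overlap, and here the fresh libraries were the highest. Slc1a2 fell in vitrified hippocampus (log2 fold change -1.52 ± 0.02, adjusted p = 1.5e-47) and in snap-frozen hippocampus (-0.47 ± 0.02, adjusted p = 1.3e-28). In cortex, Slc1a2 stood at 1878, 1948 and 1924 CPM in vitrified, 2882, 2870 and 2742 CPM in snap-frozen and 3407, 3355 and 3377 CPM in fresh tissue. The order of the states was the same as in hippocampus. Slc1a2 fell in vitrified (-0.82 ± 0.02) and in snap-frozen cortex (-0.26 ± 0.02).

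Slc1a3 (ENSMUSG00000005360.14, GRCm38 chromosome 15, 8634124 to 8710764, minus strand) encodes GLAST, the other main glutamate transporter of astrocytes. In hippocampus, Slc1a3 stood at 222, 215 and 208 CPM in vitrified, 437, 432 and 432 CPM in snap-frozen and 626, 634 and 641 CPM in fresh tissue. As for Slc1a2, fresh libraries were the highest and vitrified ones the lowest. Slc1a3 fell in vitrified hippocampus (log2 fold change -1.56 ± 0.02, adjusted p = 1.4e-43) and in snap-frozen hippocampus (-0.55 ± 0.02, adjusted p = 1.7e-27). In cortex, Slc1a3 stood at 329, 329.8 and 332 CPM in vitrified, 579.6, 573 and 556 CPM in snap-frozen and 650.5, 639 and 653 CPM in fresh tissue. The states did not overlap in cortex either, and Slc1a3 fell in vitrified (-0.97 ± 0.03) and in snap-frozen cortex (-0.18 ± 0.03).

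For Kcnj10 and Slc1a3 the sequence before the transcription start is shown, because both genes fell in both vitrified tissues while in snap-frozen hippocampus Kcnj10 rose and Slc1a3 fell. Each is the 250 bases before the RefSeq start (GRCm38.p6), written 5′ to 3′ on the strand of the gene, for Kcnj10 at chr1:172340960-172341209 (plus strand) and for Slc1a3 at chr15:8710808-8711057 (minus strand). Capitals mark matches, on either strand, to GGGCGG (the GC box) and, in Slc1a3, to TATAAA (the TATA box), ACAAT (the core of SOX sites) and TTCNNNGAA (a STAT-type site).
Kcnj10: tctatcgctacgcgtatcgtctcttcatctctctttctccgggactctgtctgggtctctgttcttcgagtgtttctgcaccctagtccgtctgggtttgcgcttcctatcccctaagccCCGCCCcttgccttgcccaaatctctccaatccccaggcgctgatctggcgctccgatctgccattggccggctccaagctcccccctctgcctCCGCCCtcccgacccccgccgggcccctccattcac
Slc1a3: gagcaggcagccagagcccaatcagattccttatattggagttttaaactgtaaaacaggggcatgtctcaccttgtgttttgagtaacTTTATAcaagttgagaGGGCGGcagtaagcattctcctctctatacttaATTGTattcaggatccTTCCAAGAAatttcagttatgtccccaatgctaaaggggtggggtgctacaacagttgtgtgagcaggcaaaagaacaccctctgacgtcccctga

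The Kcnj10 stretch held a pair of GC boxes and none of the other motifs searched, and 62.0% of its bases were G or C. The Slc1a3 stretch held 1 match each to the GC box, TATA box, SOX core and STAT-type letters, and 44.8% of its bases were G or C. RefSeq gave 12 such windows for 9 of the 10 genes, all but Aqp4. Of the 12, 4 held GGGCGG, 2 TATAAA, 2 TTCNNNGAA and 1 ACAAT. Of all 32817 windows of the same length, 32.7% held GGGCGG, 12.4% TATAAA, 7.01% TTCNNNGAA and 27.7% ACAAT. The full NFI site was in 0 of the 12 and in 0.0366% of all windows. The matches do not overlap each other in either printed sequence, and a match to such short letters only describes the sequence.

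Glul (ENSMUSG00000026473.15, GRCm38 chromosome 1, 153899944 to 153909723, plus strand) encodes glutamine synthetase, the enzyme that turns glutamate and ammonia into glutamine. In hippocampus, Glul stood at 853, 826 and 805 CPM in vitrified, 2369, 2244 and 2130 CPM in snap-frozen and 1991, 1883 and 1791 CPM in fresh tissue. Unlike both transporters, Glul was higher in every snap-frozen than in every fresh hippocampal library. Glul fell in vitrified hippocampus (log2 fold change -1.19 ± 0.03) and rose in snap-frozen hippocampus (0.25 ± 0.03, adjusted p = 6.9e-12). In cortex, Glul stood at 1306, 1349 and 1308 CPM in vitrified, 1849, 1866 and 1721 CPM in snap-frozen and 2039, 2057 and 2044 CPM in fresh tissue. In cortex the fresh libraries were the highest. Glul fell there in vitrified (-0.63 ± 0.03) and in snap-frozen tissue (-0.18 ± 0.03).

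Gja1 (ENSMUSG00000050953.10, GRCm38 chromosome 10, 56377330 to 56402513, plus strand) encodes connexin 43, the main gap junction protein of astrocytes. In hippocampus, Gja1 stood at 83.5, 82.2 and 82.4 CPM in vitrified, 263, 259 and 256 CPM in snap-frozen and 198, 196 and 203 CPM in fresh tissue. Snap-frozen libraries lay above fresh ones and vitrified ones below, without overlap. Gja1 fell in vitrified hippocampus (log2 fold change -1.27 ± 0.03) and rose in snap-frozen hippocampus (0.38 ± 0.02). In cortex, Gja1 stood at 113, 105 and 104 CPM in vitrified, 179, 179 and 185 CPM in snap-frozen and 192, 195 and 193 CPM in fresh tissue. Here too the states did not overlap, but the fresh libraries were the highest. Gja1 fell in vitrified cortex (-0.85 ± 0.04) and in snap-frozen cortex (-0.10 ± 0.03, adjusted p = 0.0274). The snap-frozen fall in cortex no longer passed when fresh replicate 1 was left out (adjusted p = 0.0623), 2 (0.0989) or 3 (0.0655) and without snap-frozen replicate 1 (0.0767) or 2 (0.0746).

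Gjb6 (ENSMUSG00000040055.9, GRCm38 chromosome 14, 57123303 to 57133611, minus strand) encodes connexin 30, the other connexin of astrocytes. In hippocampus, Gjb6 stood at 22.5, 25.4 and 21.1 CPM in vitrified, 76.7, 73.2 and 72.1 CPM in snap-frozen and 54.0, 51.4 and 49.5 CPM in fresh tissue. The states did not overlap. Gjb6 fell in vitrified hippocampus (log2 fold change -1.17 ± 0.06) and rose in snap-frozen hippocampus (0.52 ± 0.04). In cortex, Gjb6 stood at 32.3, 35.3 and 33.6 CPM in vitrified, 50.6, 51.5 and 56.6 CPM in snap-frozen and 67.0, 67.6 and 69.6 CPM in fresh tissue. The fresh libraries were the highest and the vitrified ones the lowest. Gjb6 fell in vitrified cortex (-1.01 ± 0.05) and in snap-frozen cortex (-0.36 ± 0.05, adjusted p = 7.7e-07), where its fall was the largest of the 10.

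**Figure D2:**
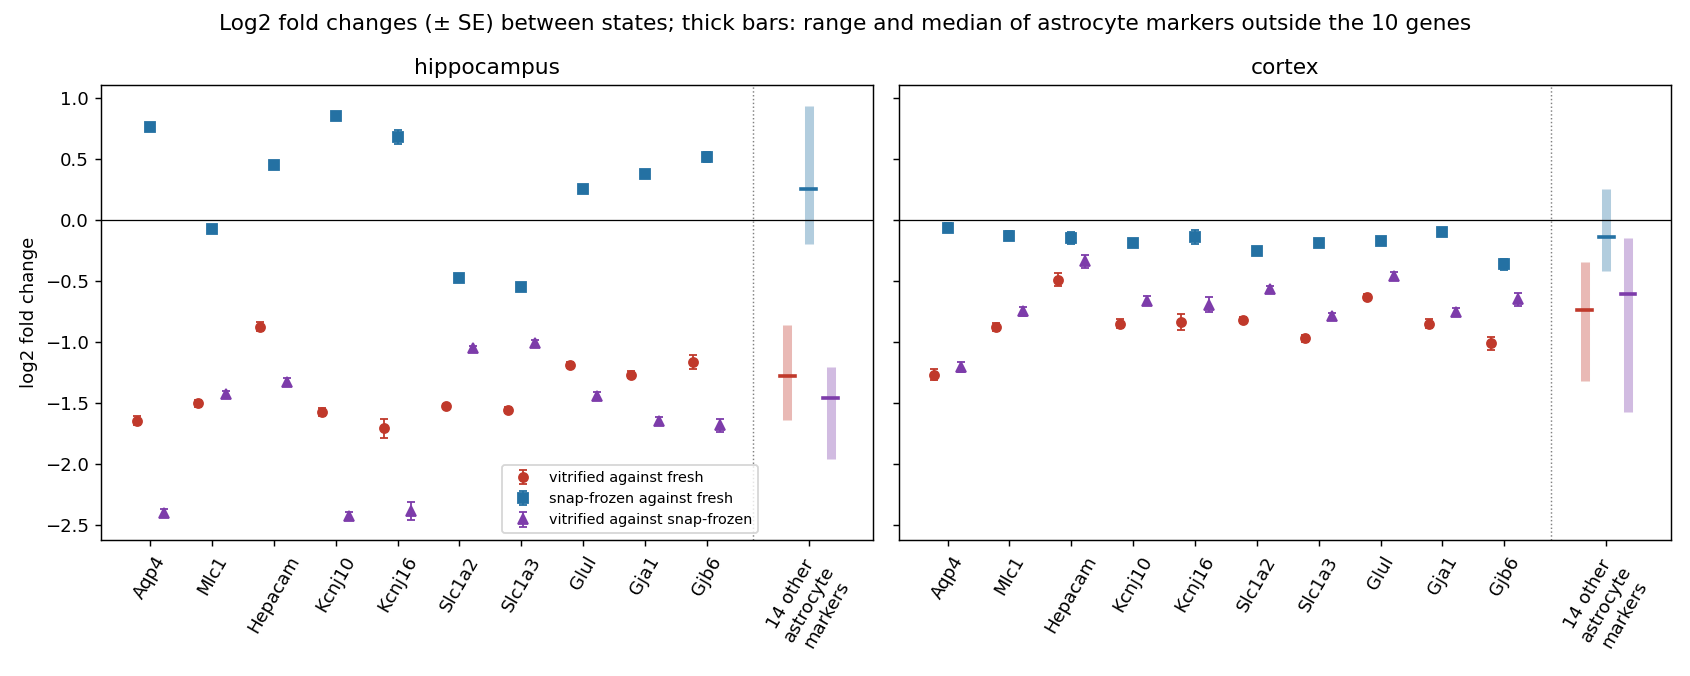
Log2 fold changes (± SE, vertical axis) of the 10 genes in hippocampus (left) and cortex (right) for vitrified against fresh, snap-frozen against fresh and vitrified against snap-frozen tissue; thick bars give the range and median of 14 astrocyte markers outside the 10 genes. In snap-frozen against fresh hippocampus Slc1a2 (-0.47) and Slc1a3 (-0.55) lie below the range of those markers, which is -0.19 to 0.94.

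Other astrocyte transcripts moved with the 10 genes. All 14 astrocyte markers outside the 10 fell in vitrified hippocampus (median log2 fold change -1.28, range -1.64 to -0.86), where they summed to 1560 to 1582 CPM, against 3742 to 3828 CPM in fresh hippocampus. They also all fell in vitrified cortex (median -0.74, range -1.32 to -0.35). In vitrified hippocampus, 8 of the 10 genes lay inside the range of those markers, and Aqp4 and Kcnj16 below it. In vitrified cortex all 10 lay inside it. In snap-frozen hippocampus 10 of the 14 markers rose and 2 fell, with a median of 0.25, and in snap-frozen cortex 10 fell and 1 rose.

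Markers of other cell types moved in vitrified tissue as well. In vitrified against fresh hippocampus all 6 ependymal markers fell (median log2 fold change -1.87), summing to 9.83 to 12.1 CPM in vitrified and 33.9 to 36.6 CPM in fresh tissue. Of 7 microglial markers 6 fell (-0.73), and their sum was 254 to 265 CPM in vitrified and 413 to 418 CPM in fresh hippocampus. All 7 endothelial markers rose (0.85), to sums of 227 to 237 CPM in vitrified against 119 to 122 CPM in fresh hippocampus. Oligodendrocyte markers fell in 7 of 8 cases (-0.28) and those of their precursors in 5 of 6 (-0.27). The sums of the 8 oligodendrocyte markers overlapped, at 6014 to 6039 CPM in vitrified and 6008 to 6170 CPM in fresh hippocampus. Of 7 excitatory neuron markers 2 rose and 1 fell, and of 6 inhibitory neuron markers 3 fell. The excitatory markers summed to 6248 to 6328 CPM in vitrified and 7644 to 7800 CPM in fresh hippocampus. Of 5 choroid plexus markers tested 1 rose and 2 fell, and 3 of 6 meningeal and 1 of 6 pericyte markers rose.

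In vitrified against fresh cortex all 6 choroid plexus markers fell (median -2.80), with sums of 7.97 to 9.07 CPM in vitrified and 315 to 409 CPM in fresh tissue. All 6 meningeal markers fell too (-1.37), with sums of 76.3 to 79.2 CPM in vitrified and 165 to 175 CPM in fresh cortex. Of 5 ependymal markers tested 4 fell, and 6 of 7 endothelial markers rose. No marker was at 0 in a whole group of either tissue, but some had few counts. In vitrified hippocampus the ependymal marker Dynlrb2 had a mean of 0.168 CPM and the choroid plexus marker Folr1 one of 0.189 CPM. In those libraries 3 counts make 0.188 to 0.19 CPM. The part of the marker differences in the falls of the 10 genes was not tested.

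Markers of other cell types also differed between snap-frozen and fresh cortex, where the falls of the 10 genes were small. All 6 choroid plexus markers fell (log2 fold changes -1.51 to -0.58), with sums of 130.2 to 137 CPM in snap-frozen and 315 to 409 CPM in fresh cortex. Of 6 meningeal markers 4 fell and 1 rose (median -0.53), and of 6 oligodendrocyte precursor markers 5 fell (-0.17). Of 6 inhibitory neuron markers 4 rose and 2 fell (0.17), and 3 of 7 microglial markers rose (0.06). In the other lists the median change lay between -0.02 and 0.30. The part of these markers in the changes of the 10 genes was not tested.

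The effect of vitrification was larger in hippocampus than in cortex for 9 of the 10 genes, tested as an interaction over all 18 libraries. Of all 14827 genes, 7.01% passed with the lower value in hippocampus. The log2 fold change in hippocampus minus that in cortex was -0.83 ± 0.10 for Kcnj16, -0.69 ± 0.05 for Kcnj10 and -0.67 ± 0.03 for Slc1a2. Mlc1 (-0.59 ± 0.05), Slc1a3 (-0.55 ± 0.04) and Glul (-0.52 ± 0.04) came next, and Gja1 (-0.38 ± 0.05), Hepacam (-0.35 ± 0.07) and Aqp4 (-0.34 ± 0.05) after them. The exception was Gjb6, whose difference of -0.12 ± 0.08 did not pass (adjusted p = 0.403, 95% interval -0.27 to 0.04). Of the 14 other astrocyte markers 12 passed with the lower value in hippocampus (median difference -0.50), as did 6 of 7 microglial (-0.55), 6 of 8 oligodendrocyte (-0.29) and 4 of 6 ependymal markers (-0.84). All 7 endothelial (0.47) and all 6 meningeal markers (1.43) passed with the higher value in hippocampus, as did 4 of 6 choroid plexus markers (2.53) and 5.89% of all genes. The part of these markers in the differences of the 10 genes was not tested.

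The effect of snap freezing differed between the tissues for 9 of the 10 genes in the same test. Kcnj10, Gjb6, Hepacam, Gja1 and Glul rose in snap-frozen hippocampus and fell in snap-frozen cortex, while Aqp4 and Kcnj16 rose in hippocampus and did not pass in cortex. Slc1a2, Slc1a3 and Mlc1 fell in both, although the sign of the Mlc1 change in hippocampus turned with library totals. The effect was higher in hippocampus than in cortex for 7 genes, from 0.44 ± 0.04 for Glul to 1.05 ± 0.04 for Kcnj10, where 28.3% of all genes passed that way. It was lower for Slc1a3 (-0.35 ± 0.03) and Slc1a2 (-0.21 ± 0.03), where 26.6% of all genes passed. The difference for Mlc1 (0.07 ± 0.04, adjusted p = 0.171, 95% interval -0.01 to 0.15) did not pass, but did with library totals (0.17, adjusted p = 0.00043). Of the 14 other astrocyte markers, 10 passed with the higher effect in hippocampus and 1 with the lower (median difference 0.46). Beside these values, 6 of 7 excitatory neuron markers had the lower effect in hippocampus (median difference -0.89). All 8 oligodendrocyte, all 7 endothelial and all 6 pericyte markers had the higher one, as did 5 of 6 choroid plexus and 4 of 6 meningeal markers. The part of these markers was not tested. For snap-frozen hippocampus, what is called the effect of snap freezing here cannot be told apart from a difference in the region taken.

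**Figure D3:**
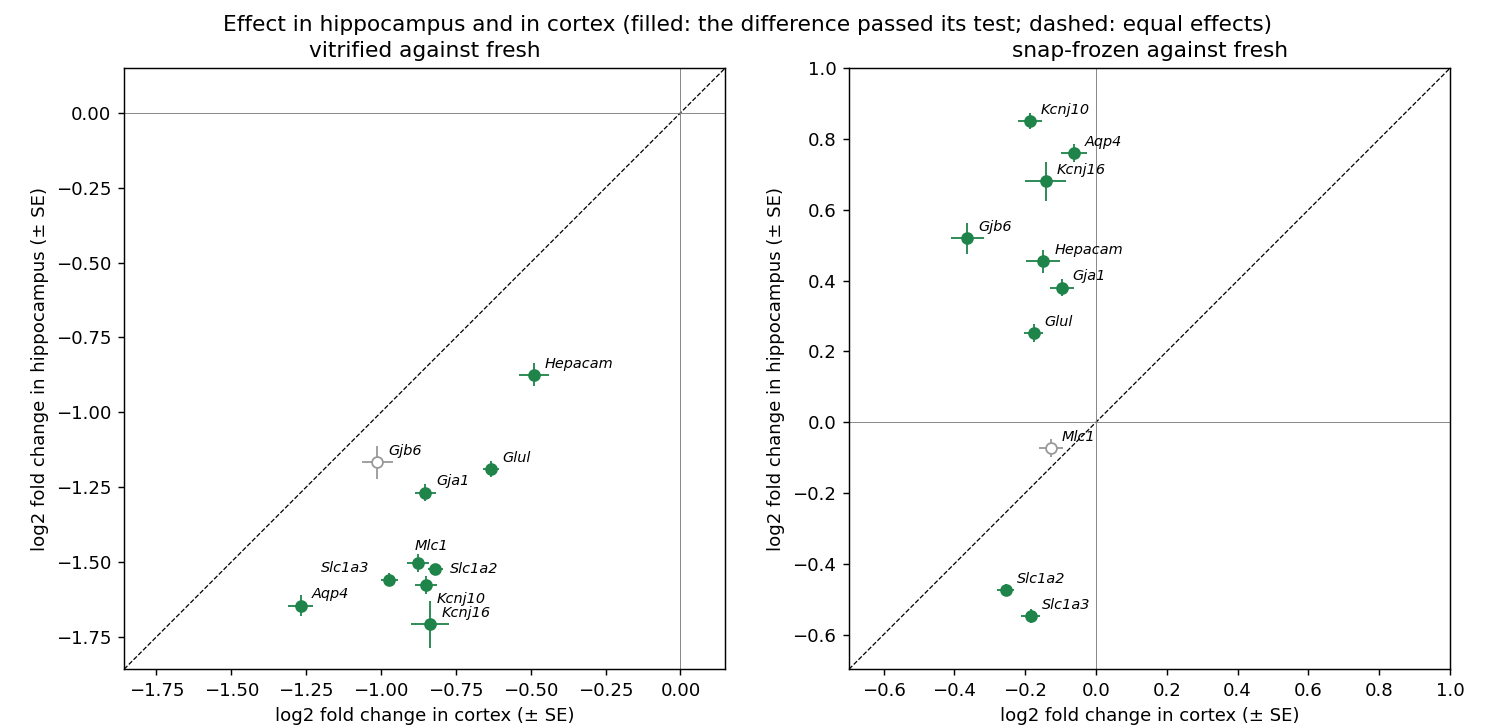
Log2 fold change in hippocampus (vertical axis, ± SE) against that in cortex (horizontal axis, ± SE) for vitrified against fresh tissue (left) and snap-frozen against fresh tissue (right), 1 point per gene; filled points passed the test of the difference between tissues. In the left panel all 10 points lie below the line of equal effects, and in the right panel 7 genes lie above 0 in hippocampus and below 0 in cortex.

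How the tissues compared also varied with the state. Between vitrified hippocampus and vitrified cortex all 10 genes were lower in hippocampus (median log2 difference -0.60), as were 28.6% of all genes. The differences there ran from -1.15 ± 0.08 for Kcnj16 to -0.35 ± 0.04 for Gja1. In snap-frozen tissue 7 were higher in hippocampus, up to 0.88 ± 0.03 for Kcnj10, as were 35.7% of all genes. Slc1a3 (-0.40 ± 0.02) and Slc1a2 (-0.35 ± 0.02) were lower, as were 30.8% of all genes. The snap-frozen difference of Mlc1 (0.06 ± 0.03, adjusted p = 0.0698) did not pass, but did without snap-frozen cortex replicate 3 (0.0135) and in most other alternatives. Of the 14 other astrocyte markers, 13 were lower and 1 was higher in vitrified hippocampus than in vitrified cortex (median -0.52). In snap-frozen tissue 13 were higher and 0 lower in hippocampus (median 0.34), and in fresh tissue 3 were higher and 6 lower (-0.07).

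Between fresh hippocampus and fresh cortex 5 of the 10 were lower in hippocampus, as were 27.8% of all genes. They were Gjb6 (-0.42 ± 0.05), Kcnj16 (-0.32 ± 0.06), Kcnj10 (-0.17 ± 0.03), Slc1a2 (-0.15 ± 0.02) and Glul (-0.13 ± 0.03). Aqp4, Hepacam, Mlc1, Gja1 and Slc1a3 did not pass in fresh tissue, with log2 differences from -0.06 for Aqp4 to 0.02 for Gja1. The 95% interval was -0.12 to 0.00 for Aqp4, -0.14 to 0.02 for Hepacam and -0.03 to 0.08 for Gja1. Slc1a3 (-0.05 ± 0.02, adjusted p = 0.0732) passed under 4 alternatives, DESeq2 among them (0.0345), and Aqp4 under 2. Each tissue has a table of its own, so levels set across both rest on the joint scaling of all 18 libraries.

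Markers of other cell types differed between the tissues in each state. In fresh tissue all 7 endothelial markers were lower in hippocampus than in cortex (median log2 difference -0.86), as were 5 of 6 choroid plexus (-3.05) and 5 of 6 meningeal markers (-1.57), and all 6 ependymal markers were higher (1.44). In snap-frozen tissue all 8 oligodendrocyte (0.81), all 6 ependymal (1.72) and all 6 pericyte markers (0.62) were higher in hippocampus, and all 7 microglial markers were lower (-0.37). In vitrified tissue all 7 microglial (-0.54), all 7 endothelial (-0.32) and all 6 inhibitory neuron markers (-0.67) were lower in hippocampus. Their part in the differences of the 10 genes was not tested.

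Genes whose products act together or alike were also compared within each library, as the log2 ratio of their counts. Hepacam over Mlc1 was -0.53, -0.61 and -0.59 in vitrified, -0.71, -0.61 and -0.71 in snap-frozen and -1.22, -1.19 and -1.20 in fresh hippocampus. In cortex it was -0.88, -0.60 and -0.82 in vitrified, -1.17, -1.06 and -1.31 in snap-frozen and -1.21, -1.16 and -1.10 in fresh tissue. The ratio was higher without overlap in vitrified than in fresh tissue, by 0.63 in hippocampus and 0.39 in cortex, and in snap-frozen than in fresh hippocampus, by 0.53. It was also higher without overlap in vitrified than in snap-frozen tissue, by 0.10 in hippocampus and 0.41 in cortex. In hippocampus the closest libraries were nearly equal, at -0.6146 in vitrified and -0.615 in snap-frozen tissue. In snap-frozen and fresh cortex the libraries overlapped.

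The connexin ratio Gjb6 over Gja1 was lower without overlap in vitrified than in fresh cortex (difference -0.16) and in snap-frozen than in fresh cortex (-0.27). Without vitrified cortex replicate 1 the first of these differences was -0.0947. In hippocampus the direction was the opposite in snap-frozen tissue, where the ratio was higher without overlap than in fresh tissue (0.14), and vitrified and fresh libraries overlapped.

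Kcnj16 over Kcnj10, the channel partners, was -3.21, -3.21 and -3.52 in vitrified, -3.31, -3.36 and -3.35 in snap-frozen and -3.14, -3.18 and -3.19 in fresh hippocampus. It was lower without overlap in vitrified (-0.14) and in snap-frozen (-0.17) than in fresh hippocampus. The vitrified difference rested on replicate 3 and was -0.0356 without that library. In cortex the ratio overlapped between all states. The transporter ratio Slc1a3 over Slc1a2 was lower without overlap in vitrified than in fresh cortex (-0.15) and in vitrified than in snap-frozen cortex (-0.22). Between snap-frozen and fresh libraries it was higher in snap-frozen cortex (0.07) and lower in snap-frozen hippocampus (-0.07), both without overlap. Over 24 such comparisons 14 had no overlap, and how often ratios of other genes do so was not examined. Each of those 14 gave the smallest p that 3 against 3 libraries allow in an exact two-sided permutation test, 0.1, or 0.171 adjusted over the 24, so none could pass.

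**Figure D4:**
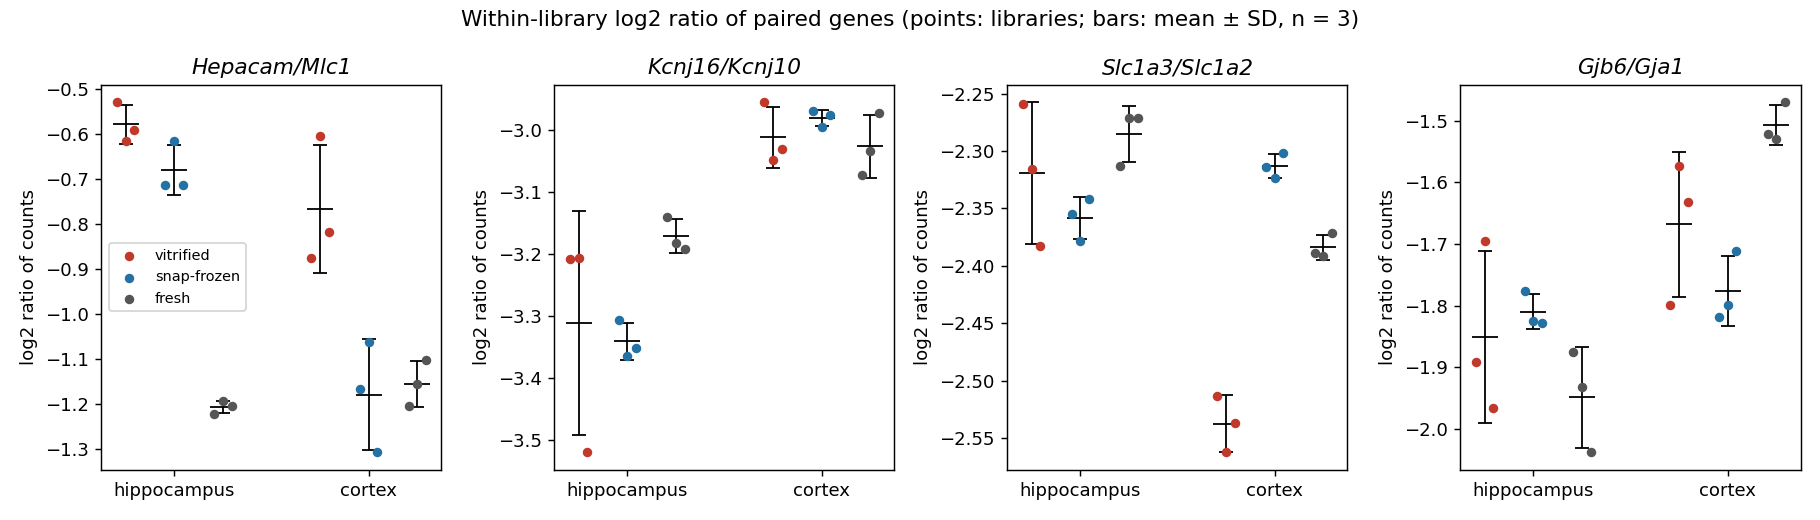
Log2 ratio of counts within each library (vertical axis) for 4 pairs of genes whose products act together or alike, with vitrified, snap-frozen and fresh libraries from left to right in each tissue and bars for mean ± SD of 3 libraries. The Hepacam over Mlc1 ratio is higher in vitrified than in fresh libraries of both tissues, by 0.63 in hippocampus and 0.39 in cortex.

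Other genes of the same pathways moved in both directions in vitrified hippocampus. The counts below stand against 25.3% of all genes that fell and 23.8% that rose in vitrified hippocampus, and 30.7% and 31.5% in snap-frozen hippocampus. In cortex 17.3% of all genes fell and 23.2% rose in vitrified tissue, and 17.6% and 16.4% did in snap-frozen tissue. Of 14 genes of water transport and endfoot anchoring 8 fell and 3 rose (median log2 fold change -0.18). Gpr37l1, a receptor of astrocytes, fell in vitrified hippocampus (-1.42 ± 0.03) and in vitrified cortex (-0.85 ± 0.03). Lama2, a laminin chain, fell to 9.25 ± 1.09 CPM in vitrified hippocampus, against 18.5 ± 0.791 CPM in fresh hippocampus (SD, n = 3 each). Dag1, the dystroglycan that binds laminin, fell (-0.47 ± 0.03), while the proteoglycan Agrn rose (0.40 ± 0.02). In snap-frozen hippocampus 6 of these genes rose and 5 fell. In cortex 7 fell and 3 rose in vitrified tissue, and 8 fell and 1 rose in snap-frozen tissue.

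Of 10 genes of potassium and ion uptake 7 fell and 2 rose in vitrified hippocampus (median -0.19). Atp1b2, which encodes a beta subunit of the sodium pump, fell (-0.86 ± 0.02). The bicarbonate transporter Slc4a4 (-1.29 ± 0.03) and the pump regulator Fxyd1 (-1.18 ± 0.08) fell too. Atp1b2 and Slc4a4 are also among the 14 astrocyte markers. In snap-frozen hippocampus 7 of the 10 rose and 1 fell. In cortex 6 fell and 2 rose in vitrified tissue, and 6 fell and 0 rose in snap-frozen tissue.

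Of 17 genes of glutamate, glutamine and GABA handling 9 fell and 5 rose in vitrified hippocampus (median -0.20). Slc6a11, the GABA transporter GAT-3 of astrocytes, fell (-1.29 ± 0.03), as did the metabotropic receptor Grm3 (-1.33 ± 0.06). The enzymes Abat, which breaks down GABA (-0.75 ± 0.03), and Glud1, which oxidises glutamate (-0.72 ± 0.02), fell as well. In snap-frozen hippocampus 12 of the 17 rose and 4 fell. Slc6a11 rose there (1.73 ± 0.02), to 649 ± 12.4 CPM in snap-frozen against 195 ± 2.40 CPM in fresh hippocampus (SD, n = 3 each). In cortex 9 fell and 2 rose in vitrified tissue, and 3 fell and 3 rose in snap-frozen tissue.

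Of 10 connexins and pannexins outside the 10 genes, 2 rose and 1 fell in vitrified hippocampus (median -0.08). The vascular connexins Gja4 (1.18 ± 0.20) and Gjc1 (0.87 ± 0.15) rose, and the pannexin Panx2 fell (-0.22 ± 0.03). In snap-frozen hippocampus 8 of the 10 rose and 0 fell. Of 9 tested in cortex, 3 fell and 2 rose in vitrified tissue, and 3 fell and 1 rose in snap-frozen tissue.

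Of the 13 other inward rectifiers of the Kcnj family, 10 could be tested in hippocampus, and in vitrified tissue 4 rose and 0 fell (median 0.24). Those that rose were Kcnj3 (0.26 ± 0.03) and Kcnj9 (0.34 ± 0.03), which encode subunits of G protein-gated channels of neurons, and Kcnj4 (0.40 ± 0.04) and Kcnj2 (0.23 ± 0.08), which encode strong rectifiers. Kcnj10 and Kcnj16 had log2 fold changes of -1.58 and -1.71 in the same comparison. In snap-frozen hippocampus 4 of the other Kcnj genes rose and 5 fell. Of 11 tested in cortex, 4 rose and 3 fell in vitrified tissue, and 1 rose and 3 fell in snap-frozen tissue.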

How the data were processed

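Poly(A) RNA was sequenced with a strand-specific kit, per the labels' protocols. The authors deposited 1 table of expected counts for each tissue, in which a value need not be whole, though every value of the 10 genes was. The submitters' processing notes name HISAT2 2.0.4 and the mouse build GRCm38.p6. How reads were counted, on which strand and with which annotation is not given in the sources used here, so reads of overlapping antisense genes may not be told apart.

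Values were rounded to whole numbers and tested with the quasi-likelihood test of edgeR 4.0.16 (R 4.3.3) after TMM scaling and edgeR's default expression filter, fitted to the 9 libraries of a tissue (14528 genes in hippocampus, 14470 in cortex) or, between tissues, to all 18 (14827 genes). P-values were adjusted over all genes tested by the Benjamini-Hochberg method at 0.05. SEs were derived from the F statistic, and 95% intervals from a normal approximation with that SE. The fits were tested on simulated data. Counts of replicates differed beyond counting noise in every group, so no library was treated as a copy of another, which does not show that they came from separate animals. Positions and exon lengths come from GENCODE M21 (GRCm38). Sequences come from RefSeq. Within-library ratios were compared with SciPy 1.17.1.

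The 10 genes were named in every comparison. Of each of 5 lists of related genes, up to 4 changed genes with the smallest p in vitrified against fresh hippocampus were named, and 11 lists of cell type markers were counted. Genes and lists were chosen with earlier results of these data known. Slc17a6 and Neurod6 are list members named after their values were seen. A gene that these rules would name is not reported here. Alternatives were median-of-ratios factors, library totals, no filter or a minimum of 1 CPM in 3 libraries, DESeq2 1.42.0, only the libraries compared, a replicate block and each library left out. For ratios, a prior of 0.5 counts, medians and each library left out were tried.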

Additional observations from a re-analysis of the deposited data

Results flagged for a closer look

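The effect of vitrification differed between hippocampus and cortex for 9 of the 10 genes by edgeR's test of the difference itself. Of all 14827 genes, 7.01% passed with the lower value in hippocampus, as those 9 did, and 5.89% with the higher. The log2 fold change in hippocampus minus that in cortex was -0.83 ± 0.10 for Kcnj16 (SE, adjusted p = 7.8e-08), -0.69 ± 0.05 for Kcnj10 (2.4e-14) and -0.67 ± 0.03 for Slc1a2 (5.6e-21). It was -0.59 ± 0.05 for Mlc1, -0.55 ± 0.04 for Slc1a3, -0.52 ± 0.04 for Glul, -0.38 ± 0.05 for Gja1, -0.35 ± 0.07 for Hepacam and -0.34 ± 0.05 for Aqp4, with adjusted p of at most 1.5e-04. Gjb6 fell in both tissues, and its difference did not pass. Of the 14 other astrocyte markers 12 also passed with the lower value in hippocampus (median difference -0.50). So did 6 of 7 microglial and 6 of 8 oligodendrocyte markers, while all 7 endothelial and all 6 meningeal markers passed with the higher value. The part of these markers in the differences was not tested.

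The effect of snap freezing differed between the tissues for 9 of the 10 by the same test. Of all genes, 28.3% passed with the higher value in hippocampus and 26.6% with the lower. The difference, hippocampus minus cortex, was 1.05 ± 0.04 for Kcnj10, 0.89 ± 0.07 for Gjb6, 0.84 ± 0.04 for Aqp4, 0.83 ± 0.08 for Kcnj16, 0.62 ± 0.06 for Hepacam, 0.49 ± 0.04 for Gja1 and 0.44 ± 0.04 for Glul. For Slc1a3 it was -0.35 ± 0.03 and for Slc1a2 -0.21 ± 0.03, with adjusted p of at most 7.3e-08 in all 9. Of the 14 other astrocyte markers, 10 passed with the higher value in hippocampus and 1 with the lower (median difference 0.46). Snap-frozen hippocampus also differed from fresh hippocampus in neuronal, oligodendrocyte and vascular markers, Slc17a6 standing at 274 ± 7.09 CPM in snap-frozen and 12.1 ± 0.329 CPM in fresh tissue. Their part in these differences was not tested. In snap-frozen hippocampus an effect of snap freezing and a difference in the region taken cannot be told apart.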

How the results depend on the processing

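In all 438 alternative counts, with falls and rises counted apart, the number of the 10 genes that fell or rose stayed within 1.5 times its value. Of 2190 alternative fold changes, 2133 kept their direction and side of the threshold, 30 passed newly, 8 no longer passed and 19 changed sign. The sign changes were those of differences near 0. Mlc1 in snap-frozen against fresh hippocampus turned to 0.0466 with library totals and no longer counted as a fall, a change within the limit of 1.5 times. In fresh hippocampus against fresh cortex, Gja1 turned to -0.0103 with library totals and Mlc1 to 0.00209 with no filter on low counts or to 9.24e-06 with at least 1 CPM in 3 libraries. With each library left out in turn, that Mlc1 difference ranged from -0.0141 to 0.0214. The Mlc1 difference in snap-frozen tissue passed in 16 of 18 such fits (over all 18, 0.0466 to 0.0921). With 1 library left out, the members that fell in snap-frozen cortex numbered 6 to 8. Of the ratios, those that changed sign with 1 library left out ranged from -0.119 to 0.0161 (Gjb6 over Gja1, vitrified against snap-frozen hippocampus), from -0.0823 to 0.0399 (Hepacam over Mlc1, snap-frozen against fresh cortex), and for Kcnj16 over Kcnj10 from -0.0134 to 0.0415 (vitrified against fresh cortex) and from -0.0227 to 0.134 (vitrified against snap-frozen hippocampus). Over all genes, library totals left 2867 falls in snap-frozen hippocampus against 4458, and DESeq2 gave 2210 rises in vitrified cortex against 3353 and 1456 in snap-frozen cortex against 2376. The cause of these changes was not tested.

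Same-numbered replicates did not deviate together: 0 of 9 such pairs correlated above 0.1 in either tissue, and 0 of 9 hippocampal and 5 of 9 cortical libraries correlated best with their own number. With a replicate block 10 of the 10 genes fell in vitrified hippocampus and 10 in vitrified cortex, as without it, and the block moved no other count of members by over 1.5 times. All genes that fell in vitrified hippocampus numbered 3644 with the block and 3672 without. Counts between tissues moved more: 3522 genes were lower in fresh hippocampus than in fresh cortex with the block and 4129 without. The block was set within each tissue, so between tissues both fits do not test the same difference. Kcnj16 had the lowest counts of the 10 (7.20 CPM or more) and the largest SE in snap-frozen against fresh cortex, where its log2 fold change of -0.14 ± 0.06 did not pass while that of Mlc1 (-0.13 ± 0.03) did. The part of depth in this was not tested.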

Other observations

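Among 11399 genes with a mean of at least 5 CPM in both tissues, those whose profile over the 18 libraries was most like the mean of the 10 included Gpr37l1 (Pearson r = 0.998), S1pr1 (0.998), Aldoc (0.998) and Fgfr3 (0.996), with log2 CPM centred within each tissue. Gpr37l1 and the glycolytic enzyme Aldoc are known from astrocytes, as are the receptors S1pr1 and Fgfr3. Of the 10 themselves, Glul and Gja1 were closest to the mean of the other 9 (r = 0.994 each), and Slc1a3 (0.878) and Slc1a2 (0.898) were farthest from it. These correlations describe 18 libraries that fall into 6 groups and share their scaling, and the libraries of a group are not independent points.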
